A study of Mus musculus with 16 samples.

Results

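The response of the wild-type dentate gyrus to voluntary running was described from 8 of the 16 RNA sequencing libraries of the series: 4 libraries of p16 WT RUN mice and 4 of p16 WT CTL mice, chosen by the genotype and treatment in their labels. All 8 come from male C57BL/6 mice aged 1 year that carry both functional copies of p16Ink4a (p16Ink4a +/+), and the groups differ in that p16 WT RUN had 12 days of free access to a running wheel (replicates 9 to 12), whereas p16 WT CTL stayed sedentary in standard cages (replicates 1 to 4). Each library was made from the pooled dentate gyri of 2 mice, and p-values therefore describe how pools vary, while variation from animal to animal was not measured. The wild-type line was derived, with its p16Ink4a knockout counterpart, by crossing a knockout allele made in FVB mice to C57BL/6. The study named the comparison of p16 WT RUN with p16 WT CTL Set C, and it asks which genes running changes where p16Ink4a is intact. The same running was also given to knockout mice (p16 KO RUN against p16 KO CTL, Set A), which share no library with Set C.

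The dentate gyrus is the part of the hippocampus where granule neurons receive cortical input and where stem cells of the subgranular zone go on making new neurons in adult rodents. Wheel running is a widely used stimulus of this niche, and its effect on neurogenesis declines with age. Neuronal firing induces first a wave of transcription factors, the immediate early genes, and then effector genes that encode secreted and synaptic proteins, such as neurotrophins, activin and pentraxins.

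The tables give TPM, the share of a gene among all transcripts after correction for gene length, as computed with StringTie, and hold no read counts. Markers of granule neurons were present in every library: Prox1, their defining transcription factor, was 72.5 to 154 TPM in p16 WT CTL and 119 to 144 TPM in p16 WT RUN, and the 13 granule markers summed to 868 to 1778 and 1095 to 1549 TPM. The p16 WT RUN libraries were all shallower than the p16 WT CTL libraries, with an aligned length of 0.634 to 0.877 relative to the mean library against 0.892 to 1.97, so that depth and running cannot be told apart. Library p16 WT CTL 2 was the deepest and stood apart, with nuclear long noncoding RNAs such as Malat1 at a mean log2 deviation of -0.76 from the 8-library mean and granule markers at -0.61. Library p16 WT RUN 10 was the highest in markers of CA1 pyramidal neurons, the neighbouring hippocampal field, at 0.97, and in oligodendrocyte markers, at 0.47. The part of depth, nuclear RNA and neighbouring tissue in the differences below was not tested beyond leaving these libraries out and fitting the marker levels as covariates. In bulk tissue, fewer cells of a type and less RNA per cell cannot be told apart.

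**Figure D1:**
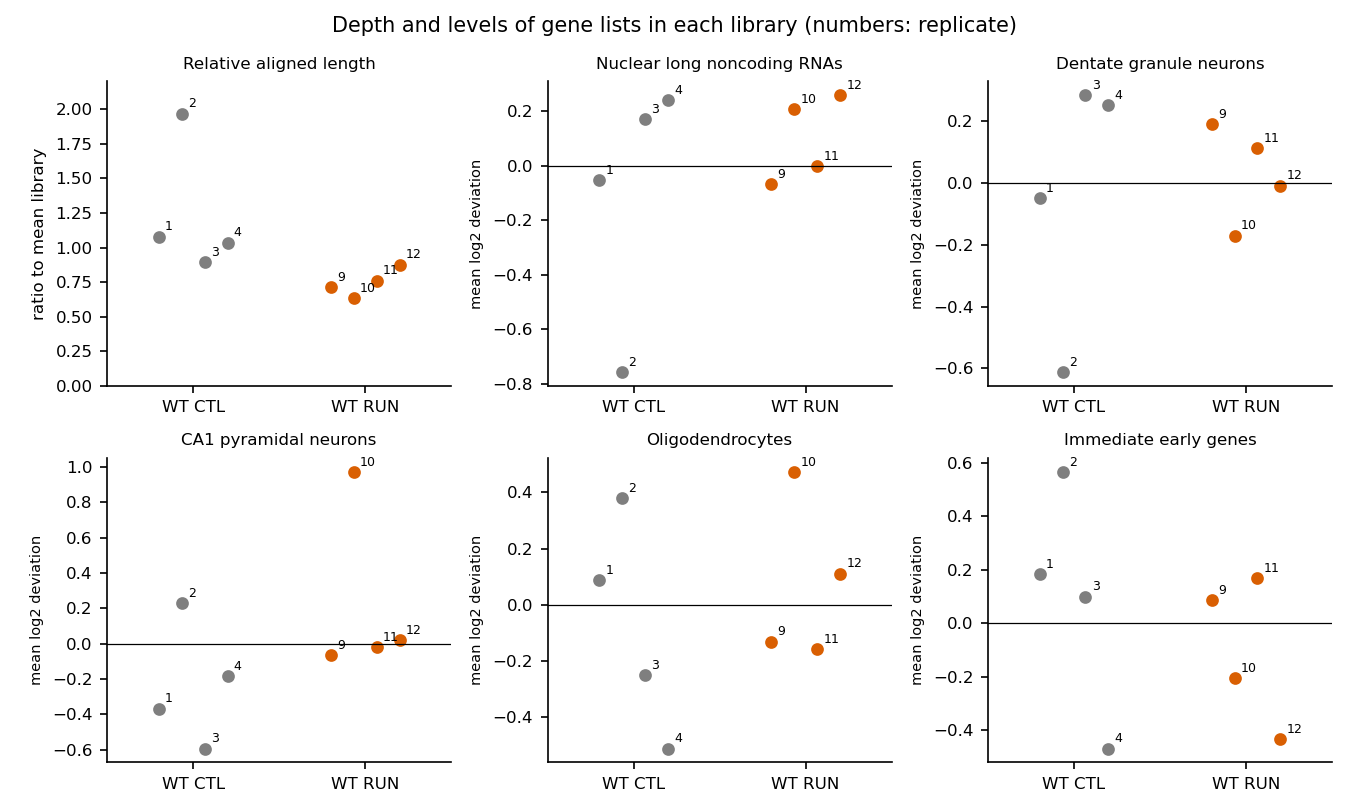
Depth (aligned length relative to the mean library) and mean log2 deviation of 5 gene lists from the 8-library mean, with 1 point for each library and its replicate number. The p16 WT RUN libraries lie at 0.634 to 0.877 in depth, below all p16 WT CTL libraries, and p16 WT CTL 2 (nuclear RNAs -0.76) and p16 WT RUN 10 (CA1 markers 0.97) stand apart.

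Of the 17317 genes tested with limma, 834 (4.82%) had an unadjusted p under 0.05, which is the threshold the study used, with 463 (2.67%) higher and 371 (2.14%) lower in p16 WT RUN. This share is no larger than the 5% that the threshold itself admits among unchanged genes, so the number of calls alone gives no sign of a response. No gene (0 of 17317) passed an adjusted p of 0.05, the smallest being 0.0731 for Yaf2. In what follows "rose" and "fell" mean an unadjusted limma p under 0.05, and each such difference failed the adjustment, with an adjusted p of 0.906 to 0.985 for every called gene named here other than Yaf2. In the exact permutation test over libraries, 55 of the 83 called named genes reached the smallest p that 4 against 4 libraries allow (0.0286), and the other 28 had a p of up to 0.143. These genes were called on the same libraries, so the permutation p is not separate evidence. Deposited TPM did not overlap between the groups in 578 genes (3.34%), of which 386 were higher (2.23%) and 192 lower (1.11%). For an unchanged gene such a separation, in either direction, has a probability of 0.0286. Deposited TPM are not scaled between libraries, and limma on them called 515 genes higher and 299 lower. The median log2 fold change of all genes was 0.0029. Library p16 WT RUN 10 was the highest of its group in 233 of the 463 higher genes and the lowest in 184 of the 371 lower ones, and without it 536 genes were called, of which 391 were among the 834.

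Some of the secreted and plasticity genes that neurons induce upon activity were higher after running. Of the 20 genes of this list, 4 rose (Inhba, Nptx2, Sorcs3 and Bdnf) and 0 fell, that is 20% against the 4.82% of all genes, and their median log2 fold change was 0.18. The same number of 4 was called without p16 WT RUN 10, and without p16 WT RUN 10 and p16 WT CTL 2 together, while 6 were called without p16 WT CTL 2 and 7 without p16 WT RUN 9 or p16 WT RUN 11. With the CA1 marker level as a covariate the count was 3. The list was chosen with earlier results of these data known, so its direction is not independent evidence.

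Inhba encodes the subunit of activin A, a secreted factor of the TGF-beta family. It was 4.72, 5.26, 4.65 and 7.40 TPM in p16 WT CTL 1 to 4, and 9.27, 25.3, 10.2 and 21.6 TPM in p16 WT RUN 9 to 12. All running libraries lay above all sedentary ones, and libraries 10 and 12 were far above 9 and 11. Its log2 fold change reached 1.45 (standard error 0.34, unadjusted p = 0.00186, adjusted p = 0.948, exact permutation p = 0.0286, the smallest that 35 splits allow), and it ran from 1.19 to 1.69 with 1 library left out.

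Nptx2, a pentraxin that gathers AMPA receptors at excitatory synapses on interneurons, was 12.4, 17.7, 20.1 and 12.6 TPM in p16 WT CTL and 25.9, 59.0, 29.4 and 39.9 TPM in p16 WT RUN. Again the groups did not overlap and replicates 10 and 12 were the highest. On the log2 scale it rose by 1.24 (standard error 0.27, unadjusted p = 0.0013, adjusted p = 0.948). Sorcs3, a sorting receptor that binds neurotrophins and acts at synapses, was narrow in p16 WT CTL (15.7 ± 0.648 TPM, SD, n = 4) and spread from 18.5 to 35.9 TPM in p16 WT RUN, a log2 difference of 0.64 (standard error 0.19, unadjusted p = 0.0075). Bdnf, the neurotrophin most often tied to exercise, was 53.3, 50.6, 57.4 and 42.8 TPM in p16 WT CTL and 60.4, 70.4, 61.3 and 60.6 TPM in p16 WT RUN. Its groups did not overlap either, but the difference was small, at 0.30 on the log2 scale (standard error 0.10, unadjusted p = 0.0166). The 4 genes kept an unadjusted p under 0.05 in each of the 8 fits with 1 library left out. Vgf, which encodes a secreted granin-like peptide precursor, was 167 ± 36.8 TPM against 236 ± 61.9 TPM (SD, n = 4 each) and missed the threshold (log2 fold change 0.47, unadjusted p = 0.0519).

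**Figure D2:**
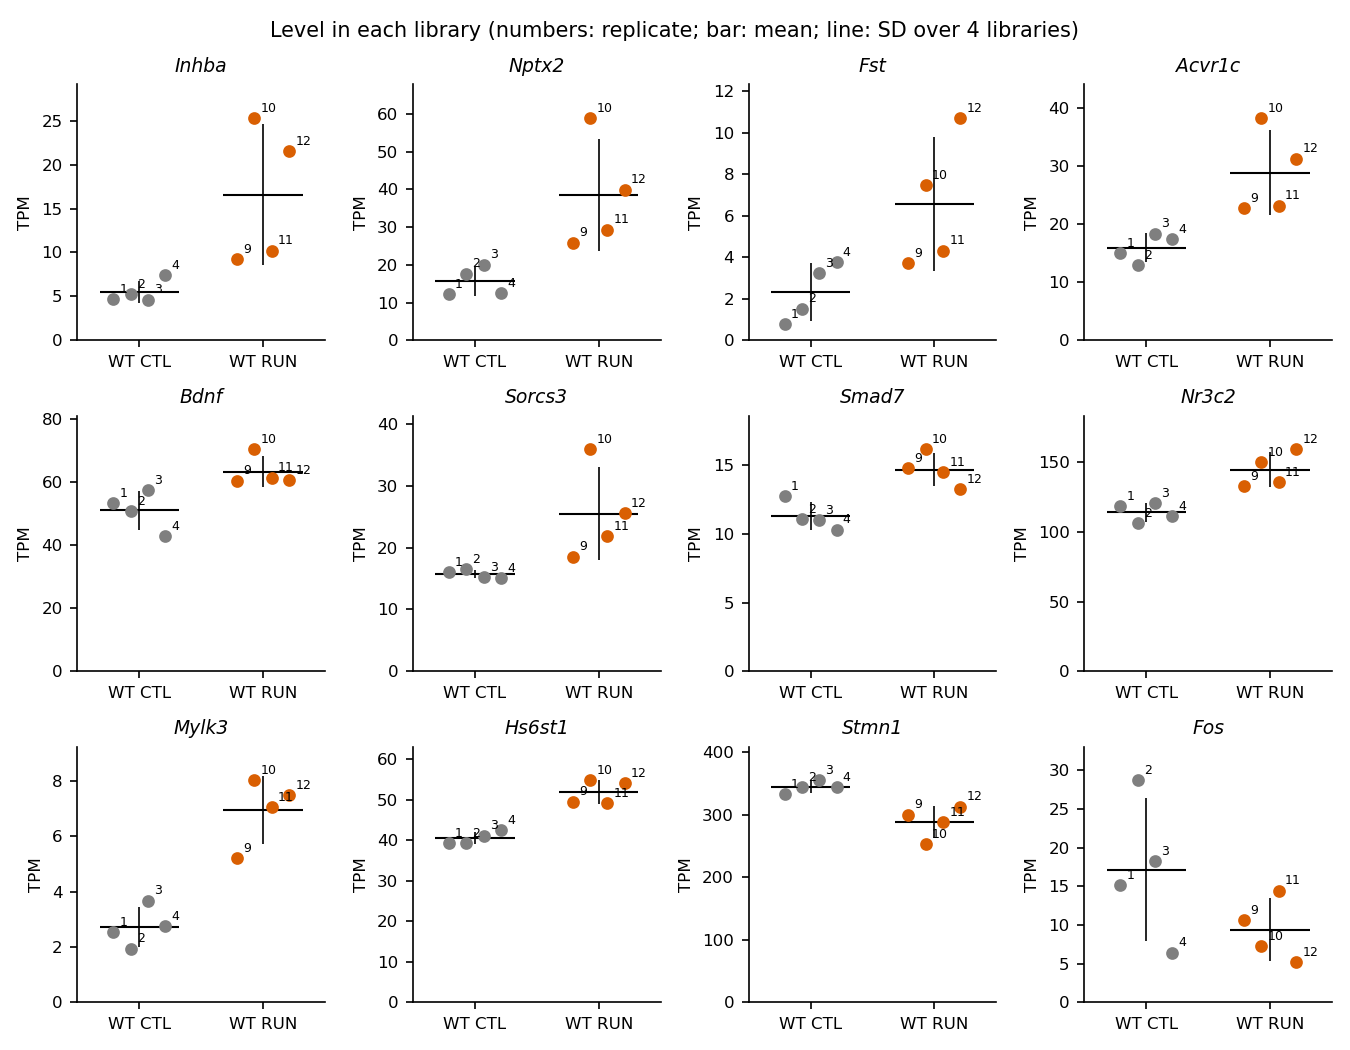
TPM of 12 genes in each library of p16 WT CTL and p16 WT RUN (points, with replicate numbers), with the mean and SD over 4 libraries, on axes that start at 0. Inhba, Nptx2, Acvr1c, Bdnf, Sorcs3, Smad7, Nr3c2, Mylk3 and Hs6st1 are higher in every p16 WT RUN library and Stmn1 lower, the lowest running value of Fst (3.72 TPM) is just under the highest sedentary one (3.77 TPM), and Fos overlaps widely.

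Activin signals through type I and type II receptor kinases to SMAD proteins, follistatin binds and blocks it, and SMAD7 inhibits the receptors. Of the 20 genes of activin and TGF-beta signalling, 5 rose (Acvr1c, Inhba, Smad7, Fst and Acvr1) and 1 fell (Tgfb2), 30% of the list against 4.82% of all genes, with a median log2 fold change of 0.07. The count of higher members was 5 without p16 WT RUN 10 and 4 without p16 WT RUN 10 and p16 WT CTL 2 together. Inhba belongs to both this list and the preceding one. The activin list too was chosen with earlier results of these data known, so its share and direction are not independent evidence.

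Acvr1c, which encodes the type I receptor ALK7, was 15.1, 13.0, 18.4 and 17.5 TPM in p16 WT CTL and 22.8, 38.3, 23.2 and 31.3 TPM in p16 WT RUN. The groups did not overlap, and as for Inhba the replicates 10 and 12 were the highest. The log2 difference was 0.82 (standard error 0.18, unadjusted p = 0.0013). Acvr1, another type I receptor, rose by less (45.1 ± 3.12 against 54.2 ± 5.82 TPM, SD, n = 4 each, log2 fold change 0.25, unadjusted p = 0.0166). Fst, which encodes follistatin, was 0.775, 1.53, 3.23 and 3.77 TPM in p16 WT CTL and 3.72, 7.46, 4.32 and 10.7 TPM in p16 WT RUN, so that the groups touched. Its log2 fold change of 1.54 had a large standard error (0.50, unadjusted p = 0.0123). Smad7 went from 11.3 ± 1.02 to 14.6 ± 1.19 TPM (SD, n = 4 each) without overlap (log2 fold change 0.36, standard error 0.10, unadjusted p = 0.00656).

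Tgfb2, a TGF-beta ligand that is also a marker of CA3 neurons in the list used, fell by 0.20 on the log2 scale (unadjusted p = 0.0401), a call lost without p16 WT CTL 1, p16 WT CTL 3, p16 WT RUN 11 or p16 WT RUN 12 (p up to 0.116). The type II receptor genes Acvr2a and Acvr2b and the SMAD genes Smad2, Smad3 and Smad4 were not called. Skil, which encodes the SMAD-binding repressor SnoN and was looked up after its value was seen, was 36.5, 30.4, 33.3 and 41.8 TPM in p16 WT CTL and 46.9, 69.6, 47.5 and 59.3 TPM in p16 WT RUN. It did not overlap between groups and rose by 0.63 on the log2 scale (standard error 0.14, unadjusted p = 0.00168).

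Promoter windows of the named genes, short stretches around each annotated start that lie mostly ahead of it (RefSeq, GRCm38.p6), were searched on both strands for letters bound by activity-regulated factors: the cAMP response element TGACGTCA and its core TGACG, which lies within it, the AP-1 site TGANTCA, the EGR site GCGTGGGCG and the E-box CACGTG. Windows were found for 40 of the 56 named genes that rose (59 windows) and for 21 of the 27 that fell (25 windows). The full response element was in 0 of the 59 windows of genes that rose, against 1.79% of all 32851 windows. Its core was in 15.3% of the windows of genes that rose, in 28% of those that fell and in 20.8% of all. The AP-1 letters were in 8.47%, 4% and 7.81%, the EGR letters in 0, 0 and 0.612%, and the E-box in 8.47%, 16% and 7.15%, respectively. These shares rest on few windows and describe letters in short windows only.

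Windows of 3 genes that rose are printed to show these letters, with the AP-1 letters or the core in capitals, 5′ to 3′ on the plus strand. The Inhba window (chr13:16011601-16011900, ahead of the start that the tables give at 16014475) holds none of the 5 motifs. Of the 7 Bdnf windows, which belong to alternative starts, the one at chr2:109676782-109677081 holds an AP-1 match and the one at chr2:109692186-109692485 a core on the opposite strand. The Homer1 window at chr13:93303507-93303806 holds 3 cores.
Inhba: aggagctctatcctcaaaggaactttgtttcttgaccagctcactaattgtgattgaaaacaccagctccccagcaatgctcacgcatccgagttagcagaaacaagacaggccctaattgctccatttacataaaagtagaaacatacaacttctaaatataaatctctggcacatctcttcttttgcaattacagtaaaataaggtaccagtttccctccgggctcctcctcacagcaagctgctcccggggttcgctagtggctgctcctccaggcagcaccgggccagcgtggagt
Bdnf with AP-1 letters: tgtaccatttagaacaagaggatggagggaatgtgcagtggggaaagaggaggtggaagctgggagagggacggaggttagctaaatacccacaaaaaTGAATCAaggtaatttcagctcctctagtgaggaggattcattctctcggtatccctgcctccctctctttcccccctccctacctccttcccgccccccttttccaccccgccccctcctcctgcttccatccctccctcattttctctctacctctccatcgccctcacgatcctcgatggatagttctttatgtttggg
Bdnf with the core: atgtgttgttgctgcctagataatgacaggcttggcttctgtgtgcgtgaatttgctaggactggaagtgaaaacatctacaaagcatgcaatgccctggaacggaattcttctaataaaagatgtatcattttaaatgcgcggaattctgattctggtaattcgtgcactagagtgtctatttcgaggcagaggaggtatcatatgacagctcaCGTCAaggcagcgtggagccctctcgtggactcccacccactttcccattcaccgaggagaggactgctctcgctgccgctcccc
Homer1: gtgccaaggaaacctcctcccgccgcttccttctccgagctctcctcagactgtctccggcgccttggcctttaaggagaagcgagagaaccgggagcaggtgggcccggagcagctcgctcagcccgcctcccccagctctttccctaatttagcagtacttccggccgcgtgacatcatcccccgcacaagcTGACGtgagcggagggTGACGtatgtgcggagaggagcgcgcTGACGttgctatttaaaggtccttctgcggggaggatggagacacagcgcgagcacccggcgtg

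The immediate early genes did not rise together after 12 days of running. Of 18 tested, 2 rose (Fosl2 and Homer1) and 0 fell at the threshold, that is 11.1% against 4.82% of all genes, and their median log2 fold change was -0.18, below that of all genes. Fos was 15.1, 28.7, 18.3 and 6.44 TPM in p16 WT CTL and 10.7, 7.30, 14.5 and 5.18 TPM in p16 WT RUN, a spread within groups as wide as the difference (log2 fold change -0.79, standard error 0.46, unadjusted p = 0.117). Npas4, a transcription factor specific to neurons, had a log2 fold change of -0.83 (unadjusted p = 0.0959), and Arc and Egr1 had 0.08 and -0.14. Arc lay between 29.7 and 126 TPM in p16 WT CTL and between 43.0 and 94.6 TPM in p16 WT RUN, and the sign of its difference changed with single libraries.

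Fosl2, which encodes the AP-1 protein FRA2, was 29.3 ± 6.45 TPM in p16 WT CTL and 40.7 ± 6.23 TPM in p16 WT RUN (SD, n = 4 each, log2 fold change 0.47, unadjusted p = 0.0217), and its call was lost without p16 WT CTL 1, p16 WT RUN 10 or p16 WT RUN 12 (p up to 0.0638). Homer1, whose short form is induced by activity and displaces the long scaffold forms, was 54.3 ± 7.22 against 67.7 ± 7.17 TPM (log2 fold change 0.31, unadjusted p = 0.0326). Its call was lost without any of p16 WT CTL 1, 3 and 4 and p16 WT RUN 10 and 12 (p up to 0.0931), and the gene-level TPM do not separate its forms. Without p16 WT RUN 10, 0 of the 18 genes were called higher, and without p16 WT CTL 4, the lowest sedentary library in this list, 5 were called lower.

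The 15 named genes higher in p16 WT RUN were chosen by the smallest p among genes that averaged 1 TPM or more. All 15 had groups that did not overlap, which a choice by p favours and which is not separate evidence. Besides Nptx2 and Acvr1c they were Yaf2, Mylk3, Snord33, Hs6st1, Tnnt2, Ppp1cb, Fam126b, Hs3st1, Pura, Lingo3, Prex1, Actn3 and Amigo1, with log2 fold changes of 0.25 to 1.32. Mylk3, known as the cardiac myosin light chain kinase, was 2.54, 1.94, 3.67 and 2.75 TPM in p16 WT CTL and 5.20, 8.03, 7.05 and 7.48 TPM in p16 WT RUN (log2 fold change 1.32, standard error 0.20, unadjusted p = 0.000105, adjusted p = 0.906). It was the largest of these 15 differences. Tnnt2, cardiac troponin T, and Actn3, the alpha-actinin of fast muscle fibres, are 2 other sarcomere genes on the list and were low in the tissue: Tnnt2 rose from 2.22 ± 0.535 to 5.69 ± 1.80 TPM and Actn3 from 0.565 ± 0.103 to 1.60 ± 0.556 TPM (SD, n = 4 each, log2 fold change 1.29 for both).

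Hs6st1 and Hs3st1 encode sulfotransferases that modify heparan sulfate chains, the polysaccharides that bind growth factors at the cell surface. Hs6st1 was 39.3, 39.3, 41.2 and 42.5 TPM in p16 WT CTL and 49.5, 54.9, 49.1 and 54.2 TPM in p16 WT RUN, a modest but tight difference (log2 fold change 0.34, standard error 0.06, unadjusted p = 0.00046). Hs3st1 rose from 15.8 ± 0.671 to 22.0 ± 2.71 TPM (SD, n = 4 each, log2 fold change 0.46, unadjusted p = 0.00106). 3 other membrane or signalling genes of neurons also rose, namely Lingo3, a leucine-rich repeat protein (32.4 ± 4.23 against 50.8 ± 9.94 TPM), Amigo1, an adhesion protein that associates with Kv2.1 channels (61.2 ± 6.06 against 74.9 ± 3.84 TPM), and Prex1, an exchange factor for Rac (54.5 ± 3.23 against 67.7 ± 3.80 TPM). Pura, a DNA- and RNA-binding protein of neurons, rose from 57.5 ± 3.68 to 70.1 ± 4.29 TPM. Snord33 is a small nucleolar RNA inside the host gene Rpl13a, whose reads in an mRNA library cannot be told apart from those of its host.

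Yaf2, a subunit of variant Polycomb complexes, had the smallest p of all genes, with 55.3, 59.8, 54.7 and 52.4 TPM in p16 WT CTL and 88.3, 92.4, 89.5 and 96.7 TPM in p16 WT RUN (log2 fold change 0.71, standard error 0.07, unadjusted p = 4.22e-06, adjusted p = 0.0731). Over all 16 libraries its values fell at 2 separate levels, 52.4 to 59.8 and 88.3 to 98.6 TPM, and 3 of the 4 p16 KO CTL and 2 of the 4 p16 KO RUN libraries were at the upper one. By a rule chosen after the data were seen (a gap of at least 0.4 on the log2 scale that takes 60% of the range, with at least 4 libraries at each level), 12 of the 10748 genes that reached 5 TPM in every library were at 2 levels. Of these, 3 were called here, namely Yaf2, Scoc and Sumo3, where 4.82% of all genes were called. Because the rule was set with the data known, this count is a description only. Scoc was at its upper level in 4 p16 WT RUN and 1 p16 WT CTL library (log2 fold change 1.04), and Sumo3 likewise in 4 and 1 (log2 fold change 1.10). Fgd4 and Nfix split in a similar way without meeting the rule: Nfix was 274, 86.0, 286 and 272 TPM in p16 WT CTL and 102, 109.6, 104 and 100.4 TPM in p16 WT RUN, with both levels also found in p16 KO CTL. What sets these levels was not tested.

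**Figure D3:**
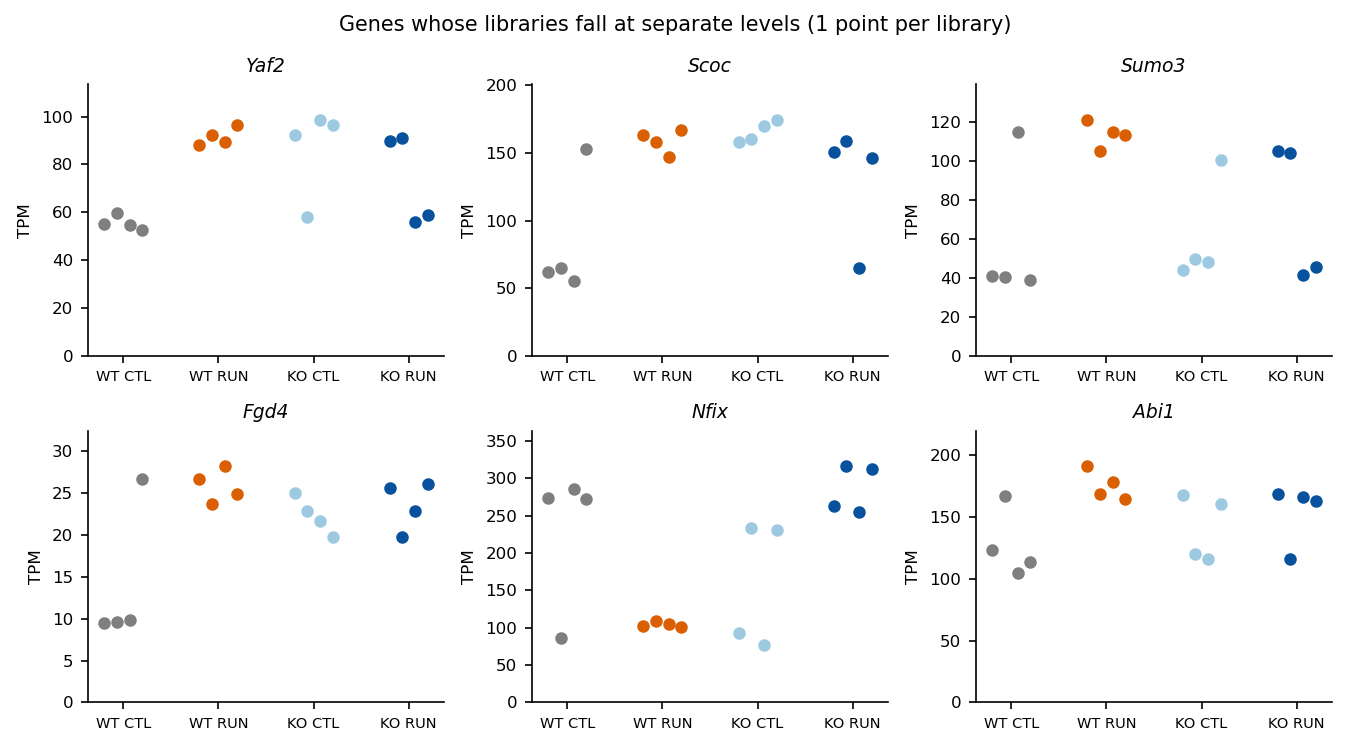
TPM of 6 genes in all 16 libraries, with 1 point per library in each of 4 groups and axes that start at 0. Values lie at separate levels rather than around a group mean, as for Yaf2 at 52.4 to 59.8 and 88.3 to 98.6 TPM, and knockout libraries take both levels for 5 of the 6 genes, Fgd4 being the exception.

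The 15 named lower genes, chosen by p in the same way, also had groups that did not overlap. H2-DMa, which helps load peptides on MHC class II, was 24.1, 25.1, 25.2 and 24.0 TPM in p16 WT CTL and 20.3, 17.97, 19.8 and 19.4 TPM in p16 WT RUN (log2 fold change -0.36, standard error 0.07, unadjusted p = 0.000452). Both groups were tight, and the gap between them exceeded the spread within either. Tmem114, a claudin-like membrane protein, fell from 15.1 ± 2.27 to 9.12 ± 1.59 TPM (SD, n = 4 each, log2 fold change -0.74, unadjusted p = 0.000829), the largest fall of a protein-coding gene on this list. Stmn1, which encodes the microtubule destabilizer stathmin and is high in immature neurons, was 333, 344, 356 and 344 TPM in p16 WT CTL and 300.2, 253, 288 and 313 TPM in p16 WT RUN (log2 fold change -0.27, standard error 0.07, unadjusted p = 0.00311). Slco2a1, a prostaglandin transporter, fell from 9.33 ± 1.08 to 6.78 ± 0.201 TPM.

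The other lower genes were Spa17, Snhg12, Eapp, Capn5, Rab29, Grhpr, Bag1, Tmsb15l and Mta3, with log2 fold changes between -0.61 (Spa17) and -0.20 (Mta3). They include Rab29, a GTPase of the trans-Golgi network, Capn5, a calpain protease, Bag1, a co-chaperone of Hsp70, and Mta3, a subunit of the NuRD complex. The entries Mir1981 and Mir6913 had log2 fold changes of -2.92 and -2.49 at a mean of 0.184 and 0.202 TPM in p16 WT RUN. Both are microRNA loci far shorter than a library fragment, with a mean coverage of 0.384 and 0.456 per base in the shallower running libraries, so that these values cannot be told apart from few reads of the surrounding transcript.

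In the peptide and growth factor lists, 5.26% of the neuropeptides, 12.5% of the neurotrophin genes, 15.4% of the insulin-like growth factor system and 0% of the VEGF genes were called, against 4.82% of all genes. Of 19 neuropeptide and granin genes only Penk, which encodes the enkephalins, was called: it was 27.2, 25.9, 48.7 and 31.9 TPM in p16 WT CTL and 46.1, 56.5, 48.5 and 54.6 TPM in p16 WT RUN (log2 fold change 0.65, standard error 0.17, unadjusted p = 0.00434). The sedentary library p16 WT CTL 3 reached the running range. Of 8 neurotrophin and receptor genes only Bdnf was called. In the insulin-like growth factor system, 2 of 13 genes were called, in opposite directions: Igfbp5 was 176, 145, 224 and 196 TPM in p16 WT CTL and 164, 74.8, 179.6 and 79.5 TPM in p16 WT RUN (log2 fold change -0.68, unadjusted p = 0.0362), and Igfbp6 was 13.2, 12.1, 21.9 and 15.3 against 17.97, 39.4, 17.2 and 30.4 TPM (log2 fold change 0.68, unadjusted p = 0.0408). Both differences came from p16 WT RUN 10 and 12, the other two running libraries lying in the sedentary range, and both calls were lost without either. They were also lost without p16 WT CTL 1 or 4, that of Igfbp5 without p16 WT CTL 3 and that of Igfbp6 without p16 WT CTL 2 (p up to 0.11). Igf1 itself was 2.50 ± 0.254 against 2.81 ± 0.280 TPM (unadjusted p = 0.369). None of the 13 VEGF and angiopoietin genes was called, and Vegfa was 44.0 ± 4.32 against 42.2 ± 11.5 TPM.

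Receptor and channel genes were called at shares from 0 to 13.6% of a list, against 4.82% of all genes. Of 22 glutamate receptor genes 3 rose (Grm2, Grin2a and Grin2b) and 0 fell, with a median log2 fold change of 0.04. Grm2, a presynaptic autoreceptor found on mossy fibres, was 77.8, 56.6, 135 and 116 TPM in p16 WT CTL and 124, 152, 142 and 161 TPM in p16 WT RUN (log2 fold change 0.65, unadjusted p = 0.0176, lost without p16 WT CTL 1 with an unadjusted p = 0.0506). The NMDA receptor subunits Grin2a and Grin2b had log2 fold changes of 0.31 and 0.39, and both calls were lost without p16 WT CTL 2, p16 WT CTL 3, p16 WT RUN 9 or p16 WT RUN 10, that of Grin2b also without p16 WT CTL 4 (p up to 0.125). Without p16 WT RUN 10 and p16 WT CTL 2 together, 0 of the 22 were called. Of 81 potassium channel genes 4 rose (Kcnk1, Kcnj6, Kcnab3 and Kcnip3) and Kcnh6 fell, a share of 6.17%, near that of all genes. The number that rose was 2 without p16 WT RUN 10 and 6 with the CA1 marker covariate, and the Kcnab3 call was lost without p16 WT CTL 3, p16 WT RUN 10 or p16 WT RUN 12. Kcnk1, a leak channel, went from 134 ± 19.2 to 163 ± 6.60 TPM (log2 fold change 0.28, unadjusted p = 0.00855), and Kcnj6, a G-protein-gated channel, from 82.0 ± 13.9 to 101 ± 6.71 TPM (log2 fold change 0.30, unadjusted p = 0.0171, lost without p16 WT RUN 10 with an unadjusted p = 0.0512).

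Of 28 monoamine and acetylcholine receptors, Drd1, the D1 dopamine receptor, rose from 4.51 ± 2.09 to 9.27 ± 3.67 TPM (log2 fold change 1.04, unadjusted p = 0.0198), and Htr1a, the 5-HT1A serotonin receptor, fell from 21.1 ± 3.76 to 15.9 ± 4.36 TPM (log2 fold change -0.44, unadjusted p = 0.0383, SD, n = 4 each). Drd1 was 12.7 and 12.2 TPM in p16 WT RUN 10 and 12 and within the sedentary range in the others, and Htr1a was 12.0 and 12.4 TPM in these 2 libraries. Neither call held without p16 WT RUN 10 or 12. The Drd1 call was also lost without p16 WT CTL 2, and that of Htr1a without p16 WT CTL 3 or 4 (p up to 0.109). None of 14 GABA receptor subunits was called. Among 32 synaptic scaffold and vesicle genes, Homer1 and Shank1 rose, Shank1 by 0.30 on the log2 scale (unadjusted p = 0.0478), a call that held in 2 of the 8 fits with 1 library left out (without p16 WT RUN 9 or 11).

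Genes of the glucocorticoid, clock and stress responses were called one by one. Nr3c2, the mineralocorticoid receptor that binds corticosterone with high affinity in the hippocampus, was 119, 106, 121 and 111 TPM in p16 WT CTL and 133, 149.9, 136 and 159.7 TPM in p16 WT RUN. Its groups did not overlap (log2 fold change 0.33, standard error 0.07, unadjusted p = 0.00178), and the call held in each of the 8 fits with 1 library left out. With Fkbp5 (0.25) and Cdkn1a (0.56) it made 3 of 18 genes of the glucocorticoid list that rose (16.7%, against 2.67% of all genes), but both of these calls were lost without p16 WT RUN 10 and without p16 WT CTL 1. They were further lost without p16 WT CTL 2 and p16 WT RUN 9 (Fkbp5) and without p16 WT CTL 3 and p16 WT RUN 12 (Cdkn1a), with p up to 0.0955. The median of this list was 0.0015.

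Against the 4.82% of all genes, 22.2% of the circadian, 10.5% of the heat shock and 8.33% of the interferon genes were called. Of 18 circadian genes, Clock (0.14), Bhlhe41 (0.28) and Npas2 (0.29) rose and Tef (-0.35) fell, all at an unadjusted p between 0.0284 and 0.0426. All 4 calls were lost without p16 WT RUN 10, and every one was lost without at least 2 further libraries (p up to 0.12). Of 19 heat shock and unfolded protein genes 2 rose: Atf3, a stress-induced transcription factor, from 1.75 ± 0.0904 to 3.37 ± 1.20 TPM (log2 fold change 0.84, unadjusted p = 0.00549), without overlap, and Bag3 (log2 fold change 0.49, unadjusted p = 0.0223), whose call was lost without p16 WT CTL 1 or 4 or p16 WT RUN 10 or 12 (p up to 0.0657). Among 24 interferon and MHC class I genes, Rtp4 and Ifitm3 rose, at an unadjusted p = 0.0402 and an unadjusted p = 0.0432, each held in 2 of the 8 fits with 1 library left out.

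Against 4.82% of all genes, 0% of the glycolysis, 1.35% of the oxidative phosphorylation, 7.69% of the exercise regulator, 0% of the cholesterol and 6.58% of the ribosomal protein genes were called. None of 23 genes of glycolysis and of glucose and lactate transport was called (median 0.01), and of 74 nuclear-encoded oxidative phosphorylation subunits only Atp5g1 was (log2 fold change 0.22, unadjusted p = 0.0485, held in 2 of the 8 fits with 1 library left out). Esrra, the nuclear receptor ERR alpha that drives mitochondrial genes, was the single call among 13 regulators linked to exercise: 41.5, 41.7, 46.5 and 44.4 TPM in p16 WT CTL and 48.5, 50.8, 51.7 and 47.4 TPM in p16 WT RUN, without overlap (log2 fold change 0.17, standard error 0.06, unadjusted p = 0.0113). All 17 tested cholesterol synthesis genes had positive log2 fold changes, with a median of 0.13, against 50.9% positive among all genes, but 0 of them were called, and 4 were without p16 WT CTL 2. Cytosolic ribosomal protein genes leaned the other way, with 10 of 76 above 0, a median of -0.07 and 5 that fell, among them Rpl23, Rps21, Rps6 and Rpl35 with log2 fold changes of -0.20 to -0.16. None of the 76 was called without p16 WT RUN 10 (0), and leaving out 1 library gave 0 to 9, the highest without p16 WT RUN 11.

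**Figure D4:**
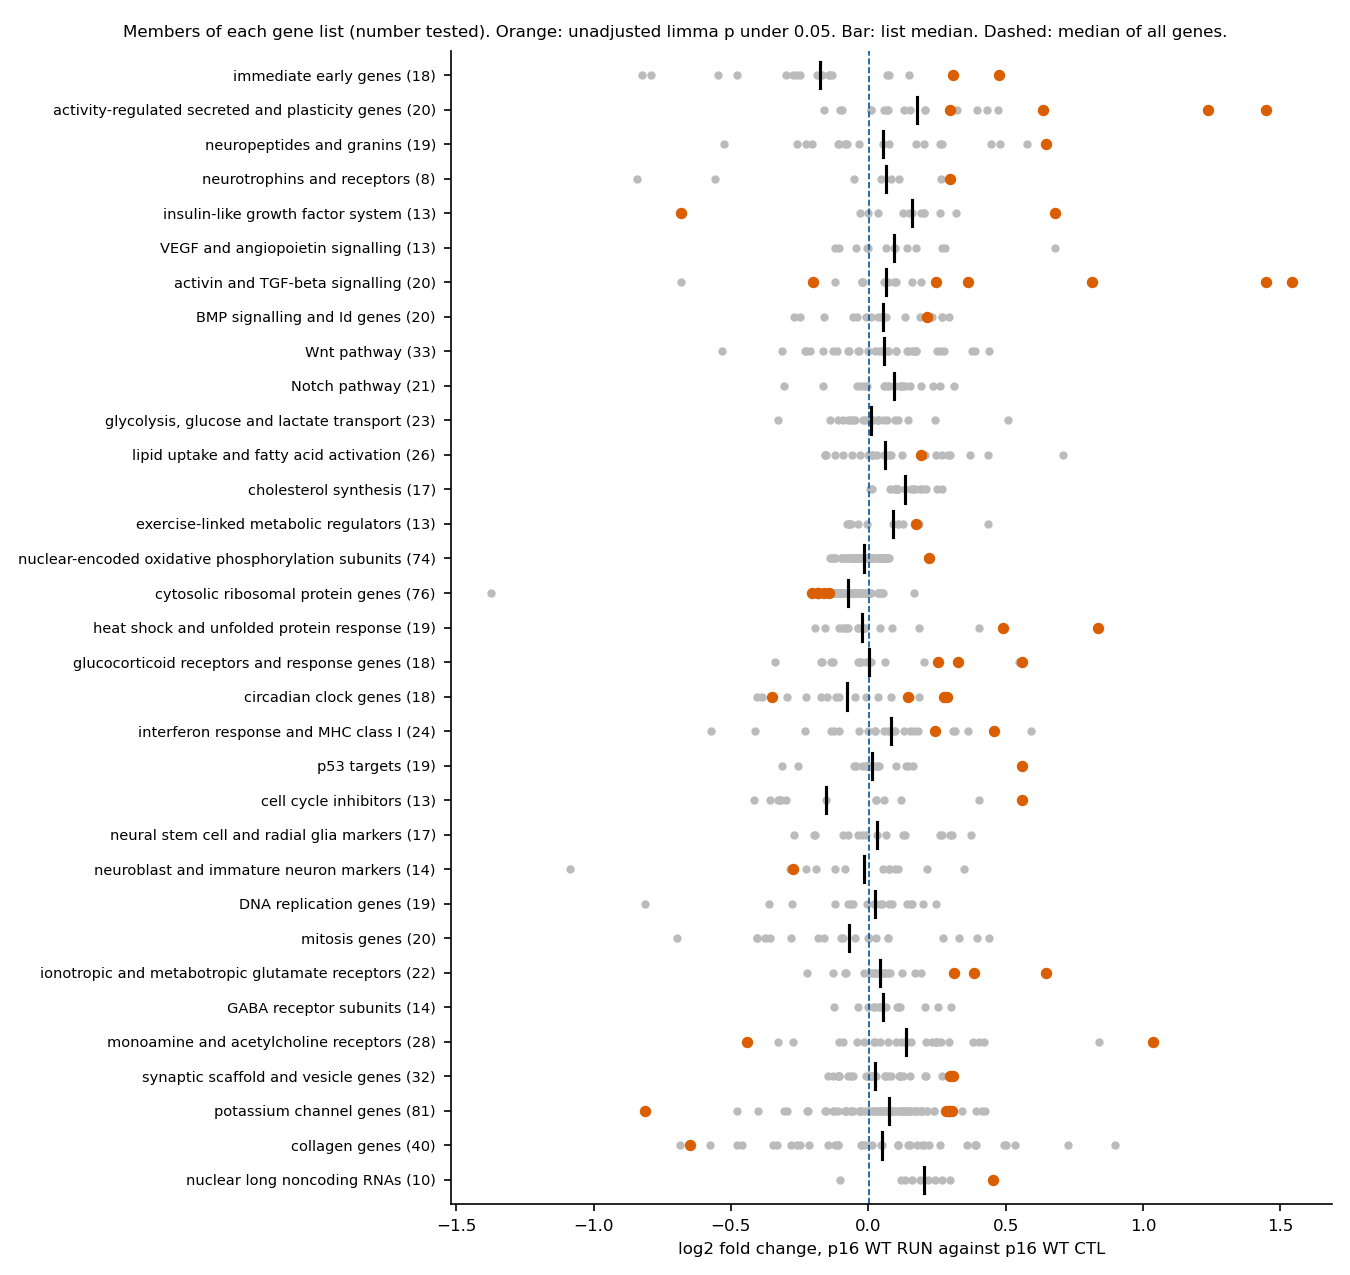
Log2 fold change of every tested member of 33 gene lists (points, orange where the unadjusted limma p was under 0.05), with the list median (bar) and the median of all genes (dashed, 0.0029). The called members of the activity-regulated list (4 of 20) and 5 of the 6 called members of the activin list lie to the right, while the immediate early genes have a median of -0.18.

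Lists of genes that report on neurogenesis were called at shares from 0 to 7.69%, against 4.82% of all genes. Counts so near that share do not show whether these genes changed. None of 17 neural stem cell and radial glia markers, 19 DNA replication genes or 20 mitosis genes was called, with medians of 0.03, 0.02 and -0.07. Of the stem cell markers, 3 were called higher without p16 WT CTL 2 and p16 WT RUN 10 together, 1 without either alone and 1 with the CA1 marker covariate, while 2 were called lower without p16 WT RUN 11. Mki67, a marker of dividing cells, was 1.47, 0.527, 1.43 and 1.36 TPM in p16 WT CTL and 0.957, 1.53, 1.55 and 1.59 TPM in p16 WT RUN (log2 fold change 0.27, standard error 0.32, unadjusted p = 0.423), and without p16 WT CTL 2 the log2 fold change was -0.03. Dcx, the marker of neuroblasts, was 5.11 ± 0.538 against 4.74 ± 0.495 TPM, Sox2 54.8 ± 8.09 against 52.4 ± 5.68 TPM, Nes 3.26 ± 0.258 against 4.02 ± 0.662 TPM and Gfap 468 ± 53.1 against 633 ± 222 TPM (SD, n = 4 each), all with an unadjusted p over the threshold (0.354, 0.572, 0.119 and 0.114). Among 14 neuroblast and immature neuron genes only Stmn1 was called, and 1 to 3 were called lower with 1 library left out. Of 13 cell cycle inhibitors, Cdkn1a alone was called, as above, and 0 were called higher without p16 WT RUN 10, while 4 were called lower without p16 WT RUN 11. Cdkn2a, the locus of p16Ink4a and of the unrelated p19Arf, was at 0 to 0.586 TPM in p16 WT CTL and 0 to 0.475 TPM in p16 WT RUN, near the lower end of what the libraries register.

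BMP, Wnt and Notch signalling, which hold stem cells quiescent or steer their fate, gave a single call (5% of the BMP list and 0% of the others, against 4.82% of all genes): Bmpr2, the BMP type II receptor, at 62.8, 57.4, 59.7 and 62.4 TPM in p16 WT CTL and 73.1, 74.3, 67.6 and 69.0 TPM in p16 WT RUN. It did not overlap between groups and rose by 0.21 on the log2 scale (standard error 0.06, unadjusted p = 0.00399). The 33 tested Wnt genes and 21 Notch genes gave 0 calls, but with 1 library left out 0 to 2 of each list were called higher. Among 26 genes of lipid uptake only Lrp1 rose (0.19, unadjusted p = 0.0372, held in 4 of the 8 fits with 1 library left out). In these fits 0 to 3 members of the list were called higher. Of 40 collagen genes, Col12a1 fell from 5.84 ± 1.06 to 3.73 ± 0.687 TPM without overlap (log2 fold change -0.65, unadjusted p = 0.00441), and 0 rose, although 4 were called higher without p16 WT CTL 4. Of 10 nuclear long noncoding RNAs, Snhg14 rose from 10.0 ± 1.67 to 13.8 ± 0.616 TPM without overlap (log2 fold change 0.45, unadjusted p = 0.00277).

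Markers of cell types were called at shares from 0 to 25% of a list, against 4.82% of all genes, with 0 or 1 call in each list other than the interneurons, which had 2. With 1 library left out, 0 to 3 interneuron markers were called higher and 0 to 3 CA3 markers lower. The lists of granule neurons, mossy cells, CA2 neurons and mural cells had 1 call each, namely Pdzd2 (0.62), Calcrl (0.34), Map3k15 (0.74) and Rgs5 (0.37), all of them lost without at least 3 of the 8 libraries. Of 8 CA1 markers all 8 had positive log2 fold changes with a median of 0.41, and Fibcd1 was called (15.7 ± 6.39 against 27.2 ± 8.23 TPM, log2 fold change 0.83, unadjusted p = 0.0243). Fibcd1 was 39.2 TPM in p16 WT RUN 10, and its call was lost without that library, p16 WT CTL 1 or p16 WT CTL 3 (p up to 0.0712). Without p16 WT CTL 2, 4 CA1 markers were called. The CA1 markers summed to 90.6 to 126 TPM in p16 WT CTL and 109.9 to 197 TPM in p16 WT RUN. Gad1, which makes GABA, rose by 0.16 (unadjusted p = 0.0175, lost without p16 WT CTL 1 or p16 WT RUN 12 with p up to 0.055) while Nos1, of a subset of interneurons, fell by 0.33 on the log2 scale (unadjusted p = 0.00385), and 14 of 16 interneuron markers were positive. Of 16 microglia markers 1 had a positive log2 fold change (median -0.11) and Itgam fell (-0.26, unadjusted p = 0.0441, held in 3 of the 8 fits), whereas 10 of the 16 were called lower with the CA1 marker level as a covariate, a fit that called 379 of 17317 genes lower. None of 13 astrocyte, 14 oligodendrocyte, 11 oligodendrocyte precursor and 11 endothelial markers was called, with medians of -0.01, 0.11, 0.09 and 0.14. In the choroid plexus list Prlr rose (1.05), a call lost without p16 WT RUN 10 or 12. Prlr was 2.88 and 2.65 TPM in these libraries, against 1.03 and 0.963 TPM in p16 WT RUN 9 and 11. Of the 12 choroid plexus markers 4 had positive log2 fold changes, with a list median of -0.18. The 12 summed to 30.8 to 57.5 TPM in p16 WT CTL and 20.4 to 50.3 TPM in p16 WT RUN. In the ependyma list Foxj1 rose (0.50), and all 6 markers were positive, with a median of 0.39. These 6 summed to 8.58 to 19.2 TPM in p16 WT CTL and 14.0 to 25.7 TPM in p16 WT RUN.

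The running response of the wild type was set beside that of the knockout (Set A), which was measured in other libraries but shares the order of depth: the p16 KO RUN libraries had an aligned length of 0.808 to 0.893 relative to the mean library and the p16 KO CTL libraries 0.911 to 1.71, so that depth and running cannot be told apart there either. There 3200 of 17317 genes (18.5%) were called, 1857 higher (10.7%) and 1343 lower (7.76%), and 3 (0.0173%) passed an adjusted p of 0.05. Positive log2 fold changes made up 53.2% of all genes in the knockout. Of the 834 genes called in the wild type, 649 (77.8%) had the same sign in the knockout, against 61.5% of all genes, and 277 (33.2%) were also called there in the same direction, whereas 21 were called in the opposite one. Of the 15 named higher genes 13 had the same sign and 8 were called in the knockout (Mylk3, Hs6st1, Tnnt2, Fam126b, Hs3st1, Lingo3, Nptx2 and Acvr1c), and of the 15 lower ones 12 and 5 (Tmem114, Capn5, Rab29, Grhpr and Stmn1). Inhba had a log2 fold change of 1.51 in the knockout against 1.45 in the wild type, Nptx2 1.35 against 1.24, Fst 1.37 against 1.54 and Acvr1c 0.95 against 0.82. The interaction test in limma gave an unadjusted p = 0.881, 0.748, 0.79 and 0.581 for these 4 genes. Hectd2, a ubiquitin ligase of the HECT type, was 17.96, 14.7, 22.2 and 33.0 TPM in p16 WT CTL and 30.7, 62.0, 43.8 and 61.2 TPM in p16 WT RUN, an overlap by 1 library, with a log2 fold change of 1.16 (unadjusted p = 0.00213) against 1.13 in the knockout.

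The interaction test over all 16 libraries gave 947 genes at an unadjusted p under 0.05 (5.47%) and 0 at an adjusted one by limma. Mki67 had a log2 fold change of 0.27 in the wild type and 1.32 in the knockout (interaction in limma, unadjusted p = 0.0162, adjusted p = 0.798), and Slc27a3, a fatty acid transport protein, 0.37 and 0.94 (unadjusted p = 0.0341, adjusted p = 0.798). Slc27a3 was 12.2, 10.6, 13.3 and 19.7 TPM in p16 WT CTL and 15.0, 23.8, 14.4 and 19.2 TPM in p16 WT RUN, so that its wild-type groups overlapped (unadjusted p = 0.109). The mitosis list, with 0 of 20 called in the wild type, had 9 higher in the knockout, where 10.7% of all genes were called higher. Its median was 0.74 there against -0.07, a difference of lists that was not tested. Other lists also moved in the knockout: nuclear long noncoding RNAs had a median of 0.87. Called lower there were 46 of 76 ribosomal protein and 25 of 74 oxidative phosphorylation genes. The part of these shifts in the mitosis result was not tested. Ppp1cb, a catalytic subunit of protein phosphatase 1, rose in the wild type from 214 ± 14.8 to 255 ± 8.29 TPM (log2 fold change 0.25) and had -0.11 in the knockout (interaction in limma, unadjusted p = 0.000147, adjusted p = 0.755).

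**Figure D5:**
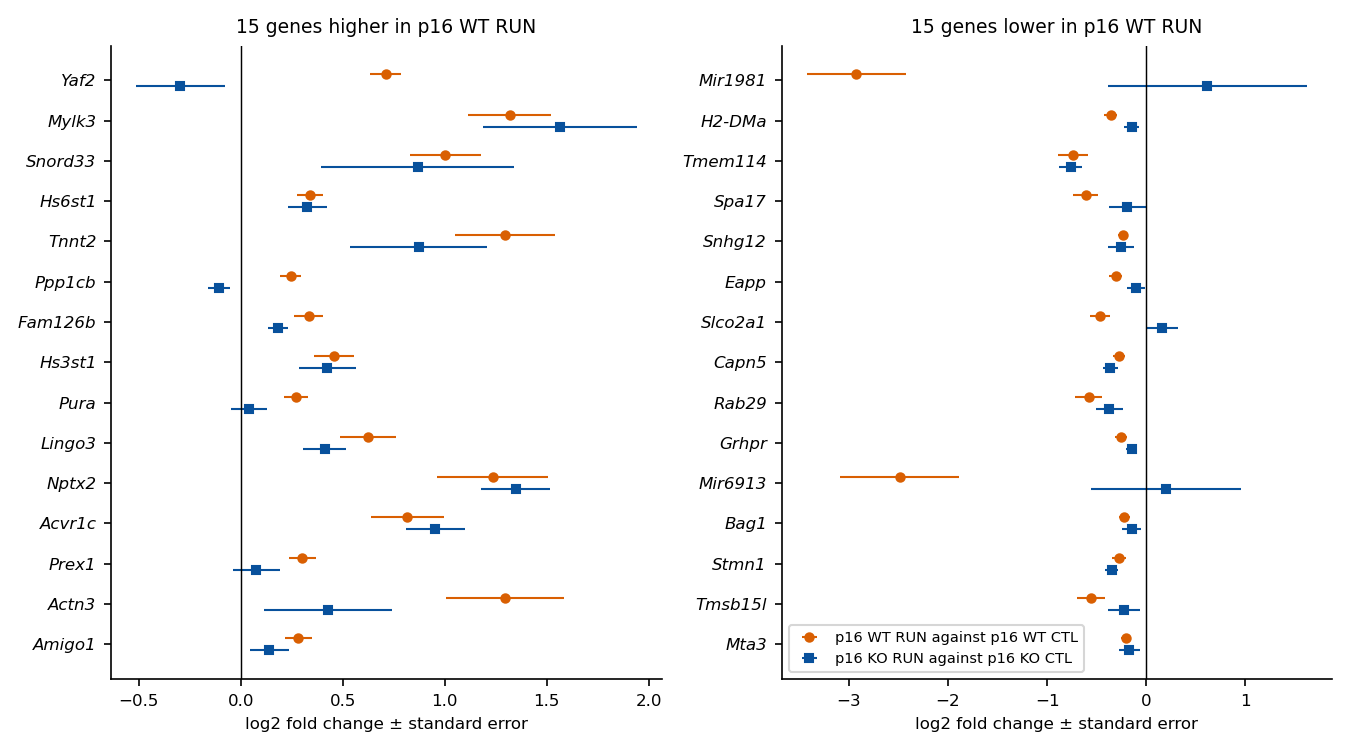
Log2 fold change with its standard error for the 15 higher and 15 lower named genes in the wild type (circles, p16 WT RUN against p16 WT CTL) and in the knockout (squares, p16 KO RUN against p16 KO CTL). Genes were chosen by their wild-type p. In the knockout 13 of the 15 higher genes (not Yaf2 and Ppp1cb) and 12 of the 15 lower genes (not Mir1981, Slco2a1 and Mir6913) have the same sign.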

How the data were processed

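Total RNA of dentate gyri was sequenced as paired-end, strand-specific mRNA libraries. Per the labels and the study's methods, the authors demultiplexed with bcl2fastq 2.20, masked adapters with cutadapt 1.11, trimmed with ERNE, aligned to mm10 with STAR and deposited 1 StringTie gene table per library. The deposited tables hold TPM, FPKM and coverage (mean per base, not scaled for depth). The authors' tests used DESeq2 on read counts, which were not used here, so TPM were tested on a log scale with limma in their place.

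Entries that share a gene name had their TPM added up (24421 names), and libraries were scaled by the median ratio over 13226 genes that reached 1 TPM in each of the 16. Genes that averaged 0.1 TPM or more over all 16 libraries were kept. They were tested on log2(TPM + 0.1) with limma 3.58.1 (R 4.3.3, variance trend, Benjamini-Hochberg adjustment), p16 WT RUN against p16 WT CTL, with no covariate. A fold change on this scale understates the change of low genes. Listed TPM are as deposited. Set A was fitted on its own 8 libraries and the interaction on all 16. For single genes, the exact two-sided permutation test over 35 splits cannot go below 0.0286. Aligned length per library stood in for depth, and absolute depth is unknown. It was taken as the median ratio of coverage to FPKM over expressed entries, relative to the mean library.

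Named genes were the 15 higher and 15 lower genes with the smallest p that averaged 1 TPM or more, leaving out symbols that start with Gm and a digit or end in Rik, up to 4 called members of each list, and 19 genes tied to running, activity or neurogenesis. Members and lists were chosen with earlier results of these data known. The fitting script was first tested on simulated data with known changes. Alternatives covered the filter, pseudocount, scaling, unit, samples in the fit, variance model, library weights, marker covariates and each library left out. Tables were made with python 3.11.15, numpy 2.4.6 and pandas 2.3.3, and plots with matplotlib 3.10.9.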

Additional observations from a re-analysis of the deposited data

Results flagged for a closer look

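In 14 groups of 4 libraries, the highest or lowest value lay far from the other three (a gap that took more of the group's range than Dixon's critical value). 196 groups were examined and chance alone gives about 1 in 20. In p16 WT RUN 10 these were Bdnf (70.4 TPM), Cdkn1a (18.03 TPM), Kcnj6 (111 TPM) and Snhg14 (14.7 TPM). In p16 WT RUN 9 they were Mir1981 (0.505 TPM), Bag1 (158 TPM) and Mki67 (0.957 TPM), and in p16 WT RUN 12 Bhlhe41 (25.1 TPM). In p16 WT CTL 2 they were Pura (52.0 TPM), Capn5 (59.3 TPM), Mki67 (0.527 TPM) and Cdkn2a (0.586 TPM), and in p16 WT CTL 4 Snord33 (2.84 TPM) and Prlr (0.876 TPM).

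For 17 of the 98 named genes the running effect differed between wild type and knockout at an unadjusted interaction p under 0.05 (limma, all 16 libraries), and the adjusted p was at least 0.755 for each. Over all genes 5.47% had such a p, and most of the named genes were chosen by their wild-type p, which in itself enlarges the difference from the knockout. The effect in the wild type minus that in the knockout, on the log2 scale, was positive for Yaf2 (1.01, unadjusted p = 0.000952), Ppp1cb (0.35, unadjusted p = 0.000147), Pura (0.23, unadjusted p = 0.0499), Esrra (0.28, unadjusted p = 0.0147), Atp5g1 (0.30, unadjusted p = 0.0405), Rtp4 (0.65, unadjusted p = 0.0392), Kcnab3 (0.37, unadjusted p = 0.0435), Calcrl (0.40, unadjusted p = 0.0318) and Fibcd1 (1.27, unadjusted p = 0.0493). It was negative for Mir1981 (-3.54, unadjusted p = 0.0103), H2-DMa (-0.21, unadjusted p = 0.0368), Slco2a1 (-0.62, unadjusted p = 0.00406), Mir6913 (-2.69, unadjusted p = 0.0196), Col12a1 (-0.76, unadjusted p = 0.0152), Npas4 (-2.08, unadjusted p = 0.011), Mki67 (-1.05, unadjusted p = 0.0162) and Slc27a3 (-0.57, unadjusted p = 0.0341). Npas4 had a log2 fold change of -0.83 in the wild type and 1.25 in the knockout.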

How the results depend on the processing

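No gene passed an adjusted p of 0.05, but 1 did with TPM as deposited (Yaf2), 1 with array weights (Yaf2), 2 with the nuclear RNA covariate (Abi1 and Yaf2), and 1 (Nfix) without p16 WT CTL 2 and p16 WT RUN 10 together, an alternative chosen after seeing the data, as was the CA1 marker covariate. Leaving out 1 library gave 0 to 2 such genes, with 2 without p16 WT CTL 2 (Nfix and Yaf2), p16 WT CTL 3 (Gm14436 and Sumo3) or p16 WT CTL 4 (Fgd4 and Scoc). The 834 genes at an unadjusted p became 536 to 1023 with 1 library left out, lowest without p16 WT RUN 10 and highest without p16 WT CTL 2, and the 463 higher ones 288 to 527. Of the 83 called named genes, 47 were called in all 8 such fits and 36 were lost in some, 29 of them without p16 WT RUN 10. Further, 27 were lost with the CA1 marker covariate (which kept 374 of the 834 genes), 27 without p16 WT CTL 2 and p16 WT RUN 10 together, 19 with no variance trend and 16 with the nuclear RNA covariate, and none changed sign under any alternative run. Signs changed for genes that were not called, with log2 fold changes over the fits without 1 library of -0.31 to 0.42 for Arc, -0.36 to 0.09 for Egr1, -0.246 to 0.0408 for Vegfa, -0.0277 to 0.437 for Mki67, -0.146 to 0.0484 for Sox2 and -0.0299 to 0.296 for Prox1. With array weights the values were 0.0836 (Egr1), -0.0073 (Mki67) and 0.0001 (Sox2), with the nuclear RNA covariate 0.10 (Egr1) and 0.0081 (Sox2), and with the CA1 marker covariate -0.0619 (Arc) and -0.19 (Cdkn2a). Without p16 WT CTL 2 and p16 WT RUN 10 together they were 0.10 (Egr1), -0.0833 (Mki67) and 0.0908 (Sox2). The cause was not tested. No paired analysis was possible because p16 WT RUN and p16 WT CTL share no replicate numbers in the labels. The number of pools (4 a group) and the unknown absolute depth limit the precision.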

Other observations

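Members of 2 gene families that stood out among the named genes were looked up after those values were seen, so their counts are descriptions. The counts include the named genes that led to the look-up: Hs6st1 and Hs3st1 in the first family, and Mylk3, Tnnt2 and Actn3 in the second. They therefore cannot be read as an excess over all genes. No gene of either family passed an adjusted p of 0.05 by limma. Of 23 tested enzymes that build or modify heparan sulfate chains, 5 rose (Hs6st1, Hs3st1, Ndst4, Hs2st1 and Extl3) and 2 fell (Extl1 and Hs3st5), with a median log2 fold change of 0.11, where 2.67% of all genes rose and 2.14% fell. Ndst4, an N-deacetylase and N-sulfotransferase, was 12.3, 9.81, 16.0 and 12.5 TPM in p16 WT CTL and 18.2, 21.9, 18.3 and 17.5 TPM in p16 WT RUN (log2 fold change 0.58, unadjusted p = 0.00181), without overlap. Hs2st1 lay between 31.8 and 35.6 TPM against 37.5 and 40.2 TPM (0.18, unadjusted p = 0.00718), also without overlap, while Hs3st5 fell by 0.53 on the log2 scale (unadjusted p = 0.0258).

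Of 27 tested sarcomere genes, 5 rose (Mylk3, Tnnt2, Actn3, Acta1 and Nebl) and 0 fell, with a median of 0.17, again beside 2.67% and 2.14% of all genes. Acta1, skeletal muscle actin, was 5.58, 6.59, 6.63 and 7.88 TPM in p16 WT CTL and 9.54, 14.0, 8.65 and 11.0 TPM in p16 WT RUN (log2 fold change 0.66, unadjusted p = 0.00374). Nebl, which encodes nebulette, was 53.8, 50.4, 57.1 and 56.4 against 62.5, 71.8, 64.8 and 64.7 TPM (0.26, unadjusted p = 0.00211). Neither gene overlapped between the groups.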
